A study of Homo sapiens with 12 samples.

Results

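Gene expression was compared between 3 libraries of cells given an LNA (locked nucleic acid) aimed at the lysine tRNA of mitochondria, named mtLys, and 3 libraries of cells given a control LNA. All were MDA-MB-231, an established line from a human breast cancer of the triple-negative kind. They were chosen by their treatment label and are 6 of the 12 libraries of the series. Members are the 52859 gene rows that were intact in the raw count table, of which 16051 had enough reads to be tested. The other 6 libraries received one of 2 LNAs against the mitochondrial asparagine tRNA (mtAsn-1 and mtAsn-2, 3 libraries each) and serve the shared estimate of the spread and the comparisons in which mtLys is set beside them. All 4 groups shared the same cells, the same 20 nM dose, Lipofectamine 2000 as the carrier and harvest on day 2, so the control cells carried an LNA too. The labels do not say whether the replicates were separate cultures, so the p-values speak only for the variation among these libraries, and that could be technical. A single cell line and a single mtLys oligonucleotide were used.

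Mitochondria translate a small set of respiratory chain mRNAs with their own tRNAs, which are cut from long transcripts of the mitochondrial genome. Each tRNA pairs with codons through its anticodon and is loaded with its amino acid by an aminoacyl-tRNA synthetase. For lysine, KARS1 encodes the enzyme of both the cytosol and the mitochondrion. An LNA is a short, chemically locked oligonucleotide that binds a complementary RNA. Mitochondrial and amino acid stress are known to act in many cells through phosphorylation of eIF2 and the transcription factor ATF4, whose targets include amino acid synthesis enzymes, transporters and cytosolic synthetases.

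The tRNA genes below are shown as the target of the mtLys LNA and as the mitochondrial tRNA gene with the largest rise. Sequences are from the reference mitochondrial genome, 5′ to 3′ as the RNA-like strand in DNA letters, with the anticodon in capitals. MT-TK lies at 8295 to 8364 on the plus strand and MT-TE, the glutamic acid tRNA gene, at 14674 to 14742 on the minus strand. The LNA sequences were not used here, so the paired bases cannot be marked.
MT-TK: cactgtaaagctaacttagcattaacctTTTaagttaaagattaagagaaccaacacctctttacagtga
MT-TE: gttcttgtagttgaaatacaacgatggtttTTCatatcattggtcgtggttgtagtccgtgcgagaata

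Reads on the targeted gene were not lower with mtLys. MT-TK stood at 6.797, 5.88 and 5.93 CPM (reads scaled to library size with edgeR's TMM factors) in control replicates 1 to 3 and at 7.55, 8.29 and 7.37 in mtLys replicates 1 to 3. The mtLys libraries lay above the control libraries without overlap. MT-TK had 313, 325 and 217 reads with mtAsn-2, in libraries of 34832707, 30524246 and 31553676 counts. With mtAsn-1 it had 126, 135 and 269, in libraries of 20697370, 17978825 and 28314164 counts. As unscaled shares of counts the mtAsn-2 libraries also lay above control, and the mtAsn-1 libraries overlapped it. The log2 fold change of mtLys over control was 0.32 ± 0.15 (SE), which did not pass edgeR's quasi-likelihood test (adjusted p = 0.0979). The two-sided exact permutation test gave p = 0.1, the smallest that 3 libraries against 3 allow. Values given after gene names below, with ±, are such log2 fold changes with their SE, and levels are in CPM for replicates 1, 2 and 3. The adjusted p of MT-TK passed in 5 of 19 other settings, among them a fit of only these 6 libraries (0.0102) and one without the filter on low counts (0.0085). It was also under 0.05 when mtAsn-1 replicate 1 (0.0489), mtAsn-1 replicate 3 (0.0434) or mtAsn-2 replicate 3 (0.0342) was left out. Because kits of this type usually select polyadenylated RNA, the reads may come from precursors and not from mature tRNA, and they do not check the knockdown.

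Of 22 mitochondrial tRNA genes, 16 were tested, 4 rose and 0 fell with mtLys, where 24.6% of all tested genes rose and 23.9% fell, so the share of rises was at the background. MT-TE rose most, by 0.63 ± 0.13 on the log2 scale (adjusted p = 0.00381), from 104.7, 110.1 and 89.6 CPM to 161, 159 and 151. It had 2393, 2205 and 4372 reads with mtAsn-1 and 4682, 4811 and 3758 with mtAsn-2. As unscaled shares of the totals given above, each of these lay above all control libraries, so a higher level than control was not particular to mtLys. MT-TW (tryptophan, 0.32 ± 0.11), MT-TG (glycine, 0.23 ± 0.087) and MT-TY (tyrosine, 0.21 ± 0.084) rose less. The ribosomal RNA genes MT-RNR1 (-0.14 ± 0.11) and MT-RNR2 (-0.079 ± 0.094) did not pass. KARS1 stood at 156 ± 11.4 CPM (SD, n = 3) in control and 146 ± 2.77 with mtLys. Its log2 fold change of -0.10 ± 0.044 did not pass (adjusted p = 0.0571), though it did without control replicate 1 (0.0326) or 3 (0.0204). With all libraries kept, it also passed under a stricter low-count filter (0.0454).

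The 6 libraries held 18826253 to 37708993 counts, and the log2 CPM values of same-group replicates had Pearson correlations of 0.9945 to 0.9963 over genes. Mitochondrial tRNA and rRNA genes took 1.04% to 1.23% of counts. Of the defining markers of the labelled line, VIM (3277 ± 130.5 CPM in control), CD44 (591 ± 47.8) and AXL (1011 ± 30.1) were abundant. ESR1 had 1 to 3 control reads and PGR had 0 in each. Leukocyte markers PTPRC, CD3E and CD53 had at most 10 reads in any library, and the fibroblast markers DCN and LUM at most 6. Other members of these lists were detected, such as LAPTM5 of the leukocyte list at 138.8 CPM in control. Enough reads to be tested were found for 4 of 8 leukocyte, 2 of 7 fibroblast, 8 of 10 luminal epithelial and 4 of 6 endothelial markers. LDHA had 0 to 3 reads per library, and RPS18, NDUFS1 and SARS2 were listed at 0, although cells in culture use such genes. Counts at or near 0, those of ESR1, PGR, PTPRC, CD3E, CD53, DCN and LUM included, are therefore not read as a lack of expression.

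Gene expression differed widely between mtLys and control. At an adjusted p under 0.05, 7785 genes (48.5% of those tested) were called, 3943 higher (24.6%) and 3842 lower (23.9%) with mtLys. Most of these differences were small: called genes had a median absolute log2 fold change of 0.36, and 1.89% changed more than 4-fold. At 2-fold or more there were 405 higher (2.52%) and 504 lower genes (3.14%). Among changes over 4-fold, 115 genes fell and 32 rose. The balance at 2-fold depended on gene class and level. Protein-coding genes had 249 higher and 212 lower, and long noncoding RNA genes 110 and 188. The fifth of tested genes with the lowest level had 212 higher and 325 lower. Under a stricter low-count filter there were 94 higher and 70 lower genes. The median over all tested genes was -0.001 on the log2 scale. Libraries of the groups did not overlap for 56.3% of tested genes, so a gap between groups is common here. The 24.6% and 23.9% are the background for every count of list members against control that follows.

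The transcription factors of the eIF2 and ATF4 stress response were lower with mtLys. Of 12 tested, 9 fell and 2 rose, with a median log2 fold change of -0.47. ATF4 itself, which reads out eIF2 phosphorylation mainly through its translation, went from 549.9, 573 and 550.4 CPM to 412, 409.7 and 417, a log2 fold change of -0.43 ± 0.036. All 3 mtLys libraries lay below the controls. ATF3, a stress-induced factor of the same family, fell from 14.6, 19.7 and 13.9 CPM to 3.91, 4.04 and 3.13 (-2.12 ± 0.13, adjusted p = 1.86e-11). NUPR1, a small chromatin-associated stress protein at chromosome 16, 28532708 to 28538974, minus strand, fell from 15.9, 16.02 and 15.3 CPM to 2.83, 3.57 and 3.28 (-2.29 ± 0.12, adjusted p = 2.14e-14). DDIT3, the factor CHOP, fell by less (-0.57 ± 0.058), as did CEBPG (-0.76 ± 0.048), CEBPB (-0.35 ± 0.082) and JDP2 (-0.95 ± 0.092). ATF5, which is known as a mitochondrial stress factor, stood at 27.3 ± 2.65 CPM and 28.97 ± 1.505 and did not pass (0.087 ± 0.12). MLXIP, a sugar-sensing factor, was the larger of the 2 rises (0.32 ± 0.063), and the other, ATF6 (0.12 ± 0.043), did not pass without control replicate 1 (adjusted p = 0.0717) or mtLys replicate 1 (0.0543) or 2 (0.085).

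**Figure D1:**
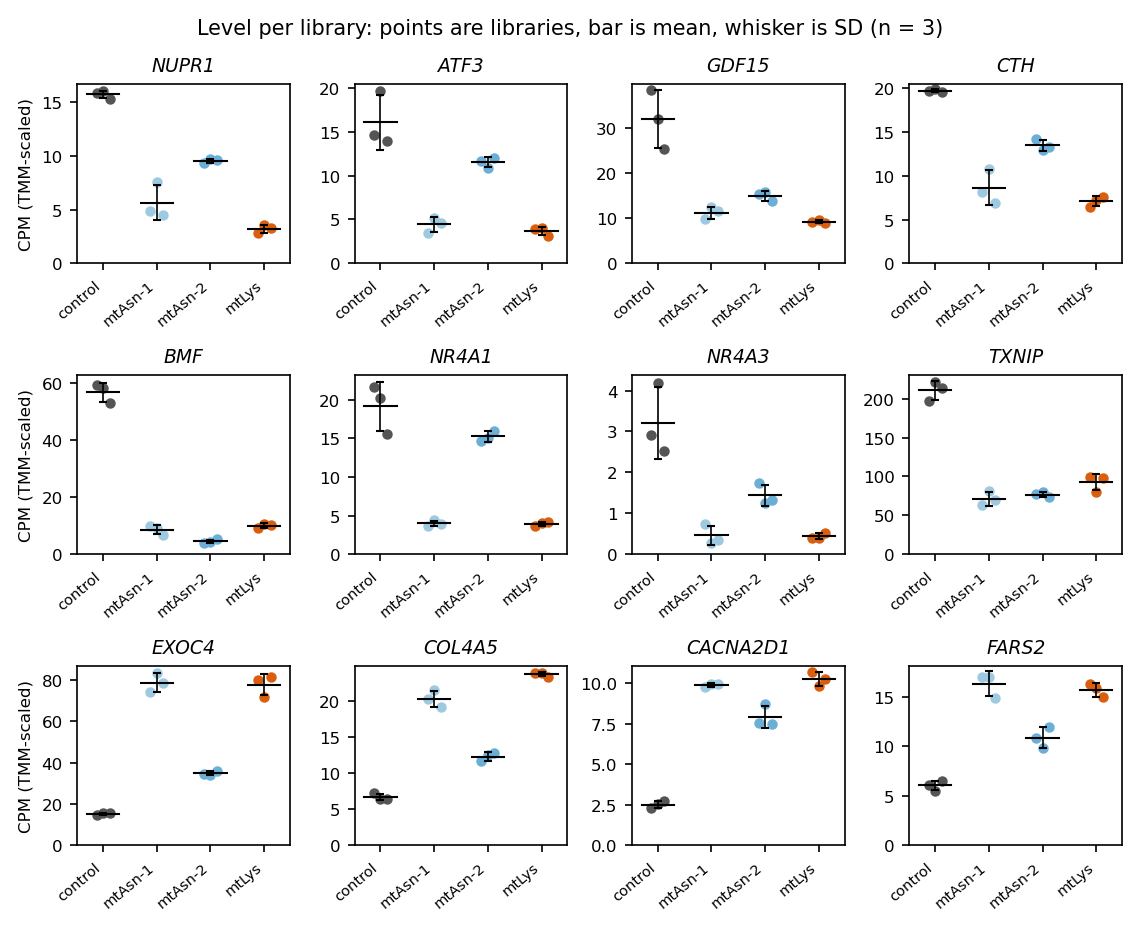
Levels of 12 genes in each of the 12 libraries, in TMM-scaled CPM on a linear axis that starts at 0; points are libraries, bars means and whiskers SD (n = 3). In each panel the 3 mtLys points lie apart from the 3 control points, below them for NUPR1, ATF3, GDF15, CTH, BMF, NR4A1, NR4A3 and TXNIP and above them for EXOC4, COL4A5, CACNA2D1 and FARS2.

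The sensors upstream of this response moved in both directions. Of 8 tested, 3 fell and 2 rose. The eIF2 kinases EIF2AK1 (HRI, -0.18 ± 0.039) and EIF2AK2 (PKR, -0.34 ± 0.049) fell, and EIF2AK4 (GCN2, 0.17 ± 0.045) rose. In the relay from stressed mitochondria, the inner membrane protease OMA1 fell (-0.32 ± 0.075) and its substrate DELE1 rose (0.28 ± 0.049). EIF2AK3 (PERK) missed the threshold (-0.19 ± 0.079, adjusted p = 0.0505), which it passed without mtAsn-1 replicate 2 (0.0362) or 3 (0.0451), under the stricter filter (0.042) and in the 6 libraries alone (0.0452).

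Feedback and secreted products of the response fell as well: 11 of 14 tested fell and 0 rose, with a median of -0.44. GDF15, a secreted stress cytokine, went from 38.3, 32.1 and 25.4 CPM in control to 9.27, 9.55 and 8.899 (-1.80 ± 0.12, adjusted p = 2.94e-09). The control libraries of GDF15 spread more than the mtLys libraries, yet the groups did not overlap. CHAC1, which degrades glutathione, fell from 16.99, 17.8 and 16.6 CPM to 7.495, 7.97 and 7.22 (-1.18 ± 0.079). TRIB3, a pseudokinase that restrains ATF4 (-0.83 ± 0.067), DDIT4, an mTORC1 inhibitor (-0.69 ± 0.052), ADM2 (-1.26 ± 0.14) and both eIF2 phosphatase subunits, PPP1R15A (-0.39 ± 0.065) and PPP1R15B (-0.36 ± 0.049), were also lower. VEGFA (0.18 ± 0.091), STC2 (-0.32 ± 0.15) and EIF4EBP1 (-0.032 ± 0.055) did not pass. SESN2 had 0 to 3 reads per library and FGF21 at most 3, and neither was tested.

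Enzymes that make serine, asparagine and cysteine fell. PHGDH, which takes the first step from glycolysis to serine, went from 30.03, 36.3 and 32.1 CPM to 11.6, 10.9 and 10.8 (-1.56 ± 0.077, adjusted p = 1.79e-15), and PSAT1, the second enzyme, from 171, 211 and 179 to 96.8, 95.2 and 96.1 (-0.96 ± 0.057). The third, PSPH, changed little (-0.14 ± 0.049, adjusted p = 0.0179), and did not pass without control replicate 3 (0.0608) or mtLys replicate 2 (0.0524). CTH, which makes cysteine from cystathionine, fell from 19.7, 19.9 and 19.5 CPM to 6.47, 7.24 and 7.63 (-1.48 ± 0.099). ASNS, asparagine synthetase, was low and fell from 3.14, 2.83 and 2.89 CPM to 1.105, 1.05 and 1.12 (-1.43 ± 0.17). ASS1, which makes argininosuccinate, fell (-1.003 ± 0.077) while ASL, which splits it to arginine, rose (0.70 ± 0.057). Of the 14 tested genes for asparagine, proline, glutamate and arginine, 6 fell and 3 rose, close to the background on the rising side.

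Of 20 one-carbon genes 4 were higher and 5 lower, shares near the background of 24.6% and 23.9%. MAT2A, which makes S-adenosylmethionine, fell from 437 ± 28.1 to 222 ± 6.18 CPM (SD, n = 3; -0.98 ± 0.045). The mitochondrial folate enzymes moved apart: MTHFD2 fell (-0.41 ± 0.053), MTHFD1L rose (0.30 ± 0.052) and SHMT2 did not pass (-0.030 ± 0.039). MTHFD2L (-0.74 ± 0.087) was lower. In lysine catabolism, 5 of 9 tested genes rose and 1 fell (median 0.22), led among well-detected genes by ALDH7A1 (0.30 ± 0.052), GCDH (0.25 ± 0.062) and AASS (0.20 ± 0.055), the entry enzyme of the main pathway. The rise of AADAT was among those lost without control replicate 2 or 3 or mtLys replicate 2 or 3 (adjusted p = 0.114, 0.128, 0.109 and 0.153), and without mtAsn-2 replicate 1 or 2 (0.0527 and 0.0521) or mtAsn-1 replicate 1 or 3 (0.0511 and 0.0507). It was also lost with DESeq2 (0.109), without the low-count filter (0.0698) and in thinned libraries (0.418). The single fall in this list became 2 without control replicate 1 or 3.

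Of 24 amino acid transporters 11 were lower and 7 higher, the rises near the background of 24.6%. SLC3A2, the shared heavy chain of several exchangers, fell from 562, 621 and 514 CPM to 271, 281 and 284 (-1.02 ± 0.050). Its light chain for large neutral amino acids, SLC7A5, fell too (-0.77 ± 0.053), and the cystine exchanger chain SLC7A11 fell by little (-0.16 ± 0.046). The neutral amino acid carriers SLC1A4 (-0.67 ± 0.070), SLC1A5 (-0.64 ± 0.046) and SLC38A2 (-0.50 ± 0.050) were lower. SLC7A1, a main lysine and arginine importer, did not pass (-0.075 ± 0.043, adjusted p = 0.152), but did without mtLys replicate 2 (0.0213). Carriers that rose included the lysosomal SLC36A1 (0.54 ± 0.055) and SLC38A9 (0.33 ± 0.065), the glycine carrier SLC6A9 (0.44 ± 0.059) and the mitochondrial aspartate-glutamate carriers SLC25A12 (0.33 ± 0.079) and SLC25A13 (0.22 ± 0.049).

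Among 21 cytosolic aminoacyl-tRNA synthetases, 10 fell and 1 rose (median -0.21). TARS3, a low-expressed threonine enzyme, had the largest fall, from 5.27, 4.71 and 4.86 CPM to 2.96, 2.96 and 2.68 (-0.78 ± 0.13). Among abundant members the largest were GARS1 for glycine, from 387, 415 and 376 CPM to 286, 280.3 and 289 (-0.46 ± 0.050), and AARS1 for alanine (-0.40 ± 0.042). NARS1 for asparagine (-0.37 ± 0.044), WARS1 (-0.36 ± 0.045) and YARS1 (-0.30 ± 0.046) fell by like amounts. QARS1 for glutamine was the single rise (0.45 ± 0.038, adjusted p = 9.23e-11), joined without control replicate 2 by FARSB (adjusted p = 0.0341). Of 15 mitochondrial synthetases, 4 rose and 4 fell, close to the background of 24.6% and 23.9%. FARS2, the mitochondrial phenylalanine enzyme, rose from 6.09, 5.52 and 6.52 CPM to 16.3, 15.9 and 14.9 (1.40 ± 0.093), and TARS2 (0.40 ± 0.057) and AARS2 (0.38 ± 0.056) by much less. NARS2 for mitochondrial asparagine tRNA did not pass (0.046 ± 0.075).

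**Figure D2:**
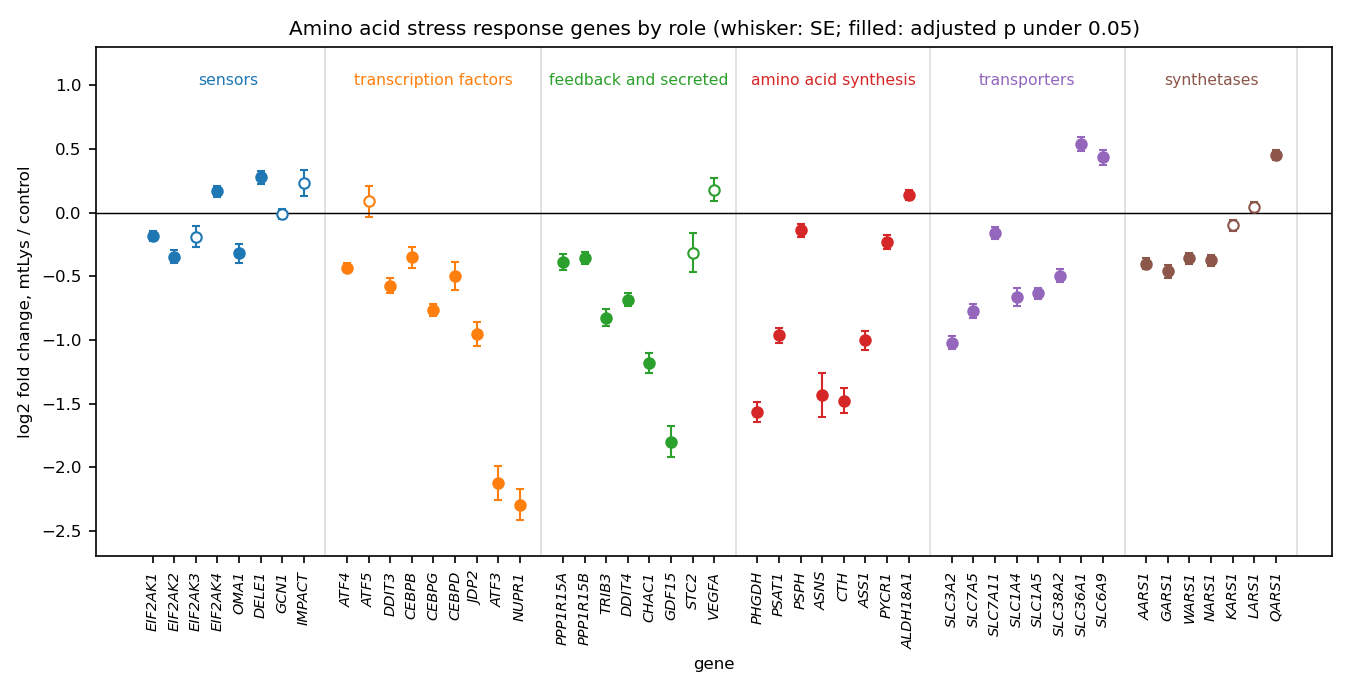
Log2 fold change of mtLys over control (vertical axis) for 48 selected genes of the stress response grouped by role; whiskers are SE and filled points passed an adjusted p under 0.05. The selection leaves out MLXIP and ATF6, the 2 rises among the factors. It also shows only part of the 24 tested transporters, of which 11 were lower and 7 higher. Also left out are ASL and GOT1, which rose, and TARS3, the largest fall among the cytosolic synthetases. Falls reach beyond -2 for ATF3 and NUPR1 and beyond -1.4 for GDF15, PHGDH, CTH and ASNS, while the sensors and synthetases plotted lie within 0.5 of 0.

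Over the union of the stress factor, feedback, serine, asparagine, transporter and cytosolic synthetase lists, 50 of 88 tested genes fell (56.8%, against 23.9% of all tested genes) and 13 rose (14.8%). These members were assembled from known ATF4 biology with earlier results of these data known.

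ATF4 and its C/EBP partners are known to bind composite elements of the form TGATGNAA. Promoter windows of 300 bases (250 before to 50 after the start, RefSeq, GRCh38.p14) were searched for these letters on both strands. Among tested genes with a window, 1.76% of 11195 held a match. The share was 21.1% of the 71 windows of the stress and amino acid genes, 26.2% of the 42 whose genes fell and 13.8% of the 29 whose genes did not. For all genes at least 2-fold lower it was 5.21% of 288, and for those at least 2-fold higher 2.81% of 249. Over all called genes the shares were close, 2.06% of 2858 lower and 1.91% of 3029 higher genes, and all 27305 windows in the RefSeq table, untested genes included, held a match in 3.67% of cases. A match is only a description of the letters. Examples are printed as the strand read towards the gene, with the match in capitals; ATF3, CHAC1, ASNS and AARS1 fell, GOT1 rose and IARS1 did not pass, so the same letters stood before genes that moved differently. The RefSeq start used for the window differs from the first base of the gene in the count table for all of these but GOT1.
ATF3, chr1:212565186-212565253, plus strand: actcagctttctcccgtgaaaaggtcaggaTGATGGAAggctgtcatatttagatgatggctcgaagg
CHAC1, chr15:40953232-40953299, plus strand: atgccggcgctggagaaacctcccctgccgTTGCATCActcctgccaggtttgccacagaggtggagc
ASNS, chr7:97872439-97872506, minus strand: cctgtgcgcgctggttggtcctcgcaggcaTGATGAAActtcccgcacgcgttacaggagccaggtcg
AARS1, chr16:70289656-70289723, minus strand: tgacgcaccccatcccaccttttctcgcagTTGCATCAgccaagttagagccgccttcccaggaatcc
GOT1, chr10:99430785-99430852, minus strand: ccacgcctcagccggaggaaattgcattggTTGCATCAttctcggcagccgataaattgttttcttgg
IARS1, chr9:92293698-92293740, minus strand: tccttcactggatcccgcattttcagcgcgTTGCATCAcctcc

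The match in ASNS lay 68 bases before the start and that in IARS1 13 bases before it. With its match, ASNS changed by -1.43 ± 0.17 (SE) on the log2 scale, AARS1 by -0.40 ± 0.042 with the reverse-strand form, and IARS1 with that same form stood at -0.067 ± 0.041 (adjusted p = 0.183; 0.0489 without control replicate 1). GOT1, an aspartate aminotransferase, rose (0.24 ± 0.049). ATF3 and CHAC1 have their matches 191 and 209 bases before the start.

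The gene with the largest fall by the naming rule was BMF, a BH3-only protein that promotes cell death by binding BCL2 proteins (chromosome 15, 40087890 to 40108879, minus strand). It went from 59.3, 58.2 and 53.03 CPM in control to 9.25, 10.8 and 10.2 with mtLys (-2.50 ± 0.090, adjusted p = 5.39e-16). The lowest control library was over 4 times the highest mtLys library. Other BH3-only genes fell with it: BBC3 (PUMA, -0.99 ± 0.13), BCL2L11 (BIM, -0.88 ± 0.069) and PMAIP1 (NOXA, -0.51 ± 0.060). BID (0.039 ± 0.045), BAD (-0.024 ± 0.056) and BIK (-0.46 ± 0.21) did not pass. Among survival members, BCL2L1 rose (0.31 ± 0.039) and MCL1 fell (-0.20 ± 0.043), and of the pore-forming members BAX (0.24 ± 0.041) and BOK (0.42 ± 0.056) rose while BAK1 did not pass (-0.13 ± 0.056). BAK1 did pass without mtLys replicate 2 (adjusted p = 0.012) or mtAsn-1 replicate 2 (0.0428). Over the 17 tested family members 5 rose and 6 fell. The 5 rises became 3 without control replicate 1, control replicate 2 or mtLys replicate 1.

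Immediate early genes, which respond within minutes to growth factors and stress, were lower: 16 of 27 tested fell and 2 rose (median -0.30). The orphan nuclear receptor NR4A1 went from 21.6, 20.2 and 15.6 CPM to 3.69, 4.101 and 4.13 (-2.29 ± 0.11, adjusted p = 5.83e-16), and its relative NR4A3 from 2.91, 4.19 and 2.51 to 0.404, 0.4101 and 0.521 (-2.89 ± 0.25). NR4A2 fell by less (-0.37 ± 0.096). Of the AP-1 genes FOSB (-1.64 ± 0.15), JUNB (-0.74 ± 0.12), FOS (-0.61 ± 0.11) and FOSL2 (-0.55 ± 0.037) fell, JUN rose (0.44 ± 0.059) and FOSL1, the most abundant, did not pass (-0.018 ± 0.039). EGR1 stood at 22.6 ± 1.73 and 22.8 ± 4.07 CPM and did not pass. MYC was the other rise (0.20 ± 0.043). Feedback genes of the MAP kinase pathway split evenly, with 5 of 16 higher (SPRED3 0.53 ± 0.073, ETV4 0.35 ± 0.043) and 5 lower (SPRY4 -0.39 ± 0.041). The 5 falls became 3 without control replicate 1.

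Antioxidant and iron genes under NRF2 were lower in 12 of 23 cases and higher in 2, of which PGD did not pass without control replicate 1 (adjusted p = 0.0591). NQO1, a quinone reductase, went from 429, 437 and 454 CPM to 204, 211 and 224 (-1.05 ± 0.046), and the ferritin light chain FTL from 3191, 3244 and 3088 to 1779, 1840.0 and 1921 (-0.78 ± 0.040). TXNRD1 (-0.69 ± 0.041), GSR (-0.67 ± 0.053) and the ferritin heavy chain FTH1 (-0.32 ± 0.088) were also lower. The glutamate-cysteine ligase genes GCLC (-0.067 ± 0.064) and GCLM (0.067 ± 0.053) and heme oxygenase HMOX1 (-0.071 ± 0.059) did not pass. NFE2L2, which encodes NRF2, fell by little (-0.20 ± 0.045). Promoter matches to TGACNNNGC, the core of the antioxidant element, stood in 17.6% of the list's windows against 15.3% of tested windows.

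Cholesterol synthesis genes fell in 15 of 28 cases and rose in 5 (median -0.15). HMGCS1, which begins the mevalonate pathway, went from 78.95, 93.6 and 87.9 CPM to 53.2, 56.04 and 57.8 (-0.64 ± 0.055). CYP51A1 (-0.56 ± 0.052), SC5D (-0.56 ± 0.072), SQLE (-0.50 ± 0.062) and INSIG1 (-0.35 ± 0.038) were lower. The regulators SREBF1 (-0.0080 ± 0.042) and SREBF2 (-0.0050 ± 0.048) did not pass. ABCA1, which exports cholesterol, rose (0.48 ± 0.080). The 5 rises became 3 without control replicate 2.

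TXNIP and ARRDC4, a related pair of arrestins induced by glucose through MLXIP and MLX, fell. TXNIP went from 197, 221 and 214 CPM to 99.2, 80.4 and 98.2 (-1.19 ± 0.094) and ARRDC4 from 3.44, 4.48 and 3.69 to 1.91, 1.73 and 1.601 (-1.15 ± 0.17). In the glycolysis list, which holds this pair, 8 of 23 genes were higher and 6 lower (24.6% and 23.9% of all tested genes). SLC2A3, a glucose transporter, fell (-0.92 ± 0.058), GPI (0.44 ± 0.041) and PFKP (0.33 ± 0.042) rose, and GAPDH did not pass (-0.012 ± 0.046). Hypoxia genes rose in 8 of 17 cases and fell in 4, among them CA9 (0.71 ± 0.19) and ANGPTL4 (0.67 ± 0.069) as rises and EGLN3 (-0.61 ± 0.064) as a fall. The 4 falls became 1 without mtLys replicate 2.

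Nuclear genes for the mitochondrial machinery that a tRNA serves showed no large shift in the counts of their lists. Of 75 mitochondrial ribosomal protein genes, 16 rose and 12 fell, shares of the tested members near or below the background of 24.6% and 23.9%. Without mtLys replicate 3 the rises numbered 10, and without control replicate 2 the falls numbered 6. Over complexes I to V, 18 of 70 tested subunit genes rose (25.7%) and 8 fell (11.4%). NDUFA10 (0.68 ± 0.053) and NDUFA7 (0.61 ± 0.090) of complex I rose most. Falls numbered 4 in complex I and 4 in complexes II to V. Without control replicate 2 they numbered 1 and 2, and in complex I 2 without control replicate 3 or mtLys replicate 2, in complexes II to V 2 without mtLys replicate 1.

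Genes that cut, modify and transcribe mitochondrial RNA fell in 12 of 32 cases and rose in 4. TRNT1, which adds the CCA end to tRNAs, went from 22.7, 22.2 and 23.8 CPM to 14.4, 16.5 and 12.7 (-0.65 ± 0.080). The lysine tRNA wobble enzyme TRMU fell by little (-0.17 ± 0.054) as did GTPBP3 (-0.25 ± 0.051), while its partner MTO1 did not pass (-0.13 ± 0.055). POLRMT (-0.30 ± 0.049), the mitochondrial RNA polymerase, and TFAM (-0.27 ± 0.058), which packages the mitochondrial genome, were lower, and LRPPRC (0.22 ± 0.046), an RNA-stabilising protein, was higher. Without control replicate 2 the falls numbered 7. Of the chaperones and proteases known for the mitochondrial unfolded protein response, HSPD1 (-0.073 ± 0.043), HSPE1 (0.012 ± 0.059) and CLPP (0.070 ± 0.050) did not pass, LONP1 rose (0.14 ± 0.041), and CLPX (-0.43 ± 0.050) and GRPEL2 (-0.85 ± 0.062) fell.

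Of 24 genes of pyruvate handling and the TCA cycle, 8 rose and 4 fell, where 24.6% and 23.9% of all tested genes did. PC, pyruvate carboxylase, went from 101, 86.4 and 101 CPM to 182, 193 and 172 (0.93 ± 0.084), and IDH2 (0.47 ± 0.082) and PDHA1 (0.54 ± 0.049) rose, while the cytosolic IDH1 fell (-0.47 ± 0.047). The 4 falls became 2 without control replicate 1. Of 27 fatty acid genes, 10 rose and 4 fell. ACADVL, the first enzyme of long-chain oxidation, rose from 351, 308 and 338 CPM to 599, 539 and 569.5 (0.78 ± 0.050), and ACSS2, which activates acetate, rose by 0.78 ± 0.061.

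The clearest group of rises encoded the matrix and its receptors. Of 29 basement membrane and collagen genes 19 rose and 1 fell (median 0.56), of 15 integrins 10 rose and 1 fell (0.45), and of 16 matrix proteases and inhibitors 13 rose and 1 fell (0.65). The single falls numbered 1 or 2, 1 or 2 and 1 to 3 when single libraries were left out. COL4A5, a chain of basement membrane collagen IV, went from 7.25, 6.499 and 6.41 CPM to 23.97, 23.9 and 23.4 (1.82 ± 0.077, adjusted p = 1.6e-16). COL7A1, the anchoring fibril collagen, went from 297, 260.4 and 271 to 606, 701 and 602 (1.21 ± 0.084), and fibronectin, FN1, from 1102, 864 and 1133 to 1984, 1632 and 1755 (0.79 ± 0.12). LAMA4 (1.27 ± 0.075), COL8A1 (1.13 ± 0.055) and COL4A1 (0.83 ± 0.043) rose, and COL1A1 was the fall (-0.61 ± 0.059).

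Among integrins ITGA2, a collagen receptor chain, rose from 325, 295 and 304 CPM to 567, 567 and 538 (0.86 ± 0.044). The laminin receptor chains ITGA3 (0.65 ± 0.048) and ITGA6 (0.49 ± 0.045) and the common chain ITGB1 (0.53 ± 0.038) rose, while ITGB2, the leukocyte chain, fell (-0.59 ± 0.053). The plasminogen activator PLAT rose from 178, 162 and 166 CPM to 398, 416 and 407 (1.27 ± 0.10), with the urokinase receptor PLAUR (0.74 ± 0.066) and the membrane protease MMP14 (0.45 ± 0.044). TIMP1 fell (-0.22 ± 0.041) and TIMP2 (0.53 ± 0.040) and TIMP3 (0.64 ± 0.085) rose. Many of these genes are long, and the share that rose was 84.0% of 25 members spanning over 100 kb and 60.0% of 35 shorter members. The same shares over all protein-coding genes were 48.5% and 22.5%. Among markers of other cells, LCP1 (1.19 ± 0.099), LAPTM5 (0.60 ± 0.039) and CD68 (0.38 ± 0.069) of leukocytes rose. Counts of PTPRC, CD3E and CD53 near 0 are not read as a lack of expression, and the part of such cells was not tested. The fibroblast list had 2 tested members of 7, PDGFRB and COL1A1, both lower. The fall of PDGFRB (-0.32 ± 0.098) did not pass without control replicate 1 (adjusted p = 0.114). The breast mesenchymal list had 4 of 8 higher and 0 lower, but 1 lower without control replicate 1 or mtAsn-1 replicate 2. TGF-beta and YAP targets moved in both directions, with 4 of 23 higher (TGFBI 0.75 ± 0.045) and 8 lower (SKIL -0.68 ± 0.078, SMAD7 -0.64 ± 0.094), and 5 lower without mtLys replicate 1.

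Calcium and ion channel genes rose in 13 of 21 cases and fell in 4 (median 0.33). CACNA2D1, an auxiliary subunit of voltage-gated calcium channels (chromosome 7, 81946444 to 82443956, minus strand), went from 2.31, 2.54 and 2.73 CPM to 10.7, 9.81 and 10.3 (2.03 ± 0.11, adjusted p = 1.14e-14). The plasma membrane calcium pump ATP2B1 rose (1.005 ± 0.042) with the mechanosensitive channel PIEZO1 (0.57 ± 0.041). MCU, the pore gene of the mitochondrial calcium uniporter, fell slightly (-0.15 ± 0.049). In the exocyst, which tethers secretory vesicles to the plasma membrane, 5 of 9 genes rose and 1 fell (2 falls with replicate 1 or 3 of mtAsn-2, or replicate 2 of mtAsn-1, left out). EXOC4 (chromosome 7, 133253067 to 134067137, plus strand) went from 14.8, 15.6 and 15.7 CPM to 79.9, 71.9 and 81.3, a log2 fold change of 2.34 ± 0.061 (adjusted p = 2.4e-21). Its partners EXOC6B (0.86 ± 0.075), EXOC2 (0.41 ± 0.043) and EXOC1 (0.24 ± 0.048) rose by far less.

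Among the 15 largest rises by the naming rule were TNFSF15, EXOC4, CACNA2D1, FHIT, DNHD1, COL4A5, SHISAL1, MIG7, CD22, THSD4, PDE2A, SMYD3, SHC3 and ZNF75D. TNFSF15, a TNF family cytokine, went from 1.195, 0.845 and 0.909 CPM to 4.39, 9.32 and 3.91 (2.59 ± 0.51, adjusted p = 0.00251), with wide spread within groups. FHIT, a diadenosine hydrolase in a fragile site, went from 2.02, 1.92 and 1.98 to 7.79, 6.65 and 8.303 (1.94 ± 0.14). SMYD3, a lysine methyltransferase, rose by 1.48 ± 0.088. Strand is not stated for the counting, so genes whose exons overlap a gene on the other strand are uncertain, among them DNHD1, SHISAL1, PDE2A, SMYD3 and ZNF75D. For DNHD1 (1.84 ± 0.11) the partner RRP8 was tested and did not pass (-0.12 ± 0.054).

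The 15 largest falls were BMF, NUPR1, NR4A1, ATF3, ADM5, AGBL3, ALOX12, GDF15, ZNF844, FGFR3, RRAD, PHGDH, KCNJ14, TRIM52 and S100P. FGFR3, a fibroblast growth factor receptor, went from 17.7, 14.98 and 13.5 CPM to 5.01, 5.71 and 4.88 (-1.57 ± 0.10), and S100P, a calcium-binding protein, from 19.6, 17.9 and 16.7 to 5.99, 6.94 and 5.66 (-1.54 ± 0.10). RRAD, a small GTPase, went from 13.4, 14.9 and 9.57 to 3.85, 4.804 and 4.39 (-1.57 ± 0.12). ALOX12 (-1.82 ± 0.12) overlaps ALOX12-AS1, which fell too (-1.18 ± 0.22), and TRIM52 (-1.55 ± 0.070) overlaps CTC-338M12.4, which fell by a like amount (-1.40 ± 0.10, adjusted p = 5.53e-12), and TRIM52-AS1, which did not pass (-0.048 ± 0.10). AGBL3 (-1.84 ± 0.12) and EXOC4 both lie on chromosome 7 and moved in opposite directions.

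Rises were more frequent among genes that are long on the genome. Of 2500 protein-coding genes spanning up to 10 kb, 19.1% rose and 29.04% fell with mtLys. Of 2152 genes spanning 100 to 400 kb, 45.4% rose and 12.6% fell. Of 280 genes over 400 kb, 72.1% rose and 3.21% fell, with a median log2 fold change of 0.51. Restricted to genes with a mean log2 CPM of at least 4, 85.6% of 104 genes over 400 kb rose and 1.92% fell. EXOC4, FHIT, SMYD3, THSD4 and CACNA2D1 among the largest rises span 497513 to 1504185 bases, THSD4 (1.48 ± 0.090) 667768 of them. Against mtAsn-1 the genes over 400 kb had 3.57% higher and 2.14% lower, and against mtAsn-2 74.3% higher and 1.79% lower. The comparisons share the mtLys libraries and are given side by side only. Genes over 100 kb had a median level of 4.64 log2 CPM and shorter ones 4.96. Those over 400 kb had a median of 3.22, against 4.9 for all tested protein-coding genes. The part of level in these shares was not tested.

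**Figure D3:**
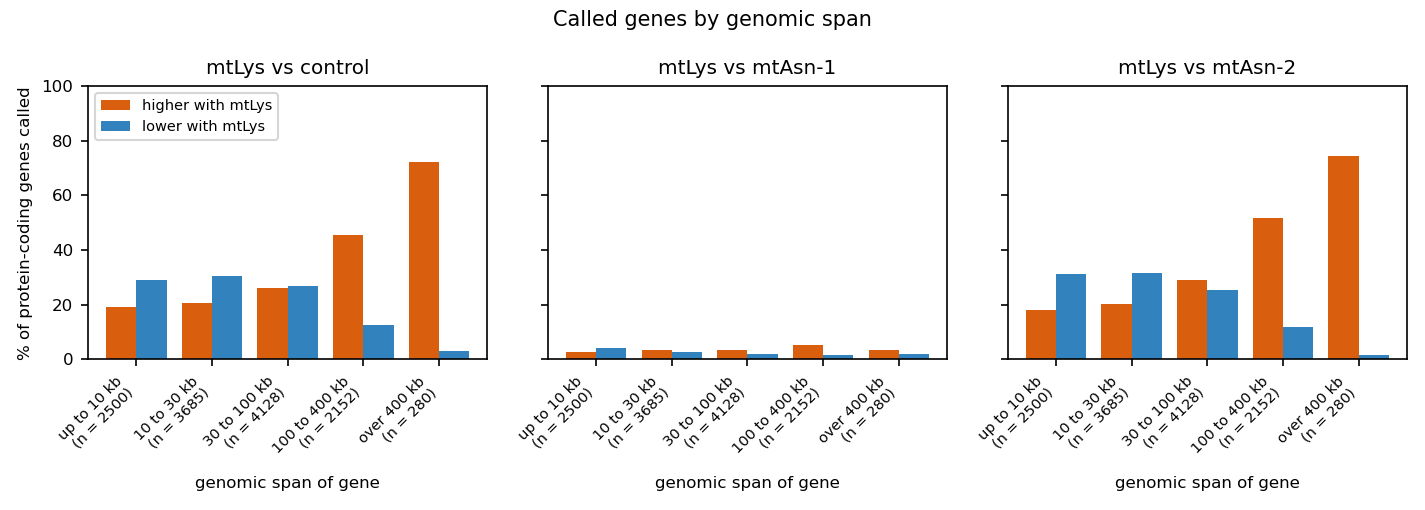
Percent of tested protein-coding genes called higher (orange) or lower (blue) with mtLys, by genomic span in 5 bins, against control (left), mtAsn-1 (middle) and mtAsn-2 (right). Against control the share of higher genes goes from 19.1% in the shortest bin to 72.1% in the longest, and against mtAsn-1 it is 3.57% in the longest.

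Zinc finger genes were singled out after their values were seen. Of 212 tested genes with ZNF symbols on chromosome 19, 100 fell (47.2%) and 11 rose (5.19%) against control, with a median of -0.20. Of 217 on other chromosomes, 90 fell (41.5%) and 16 rose. Other protein-coding genes of chromosome 19 fell in 30.8% of 734 cases and rose in 23.6%. ZNF844, on chromosome 19, went from 25.8, 30.03 and 27.2 CPM to 8.44, 8.38 and 9.16 (-1.68 ± 0.079). Against mtAsn-1, 0 ZNF genes of chromosome 19 were lower and 1 was higher, and against mtAsn-2 125 were lower (58.96%) and 10 higher. These genes form a family of related sequence, and how reads that match several of them were counted is unknown here. Of 116 snoRNA genes 27 fell (23.28%), near the background of 23.9%, and 0 rose. Of 774 pseudogenes 72 fell (9.3%) and 13 rose (1.68%), both below the background.

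Cytokine and NF-kappaB genes rose in 10 of 25 cases and fell in 1 (median 0.30), or in 2 without control replicate 3, mtAsn-1 replicate 2 or mtLys replicate 2. The chemokine CXCL8 went from 10.6, 8.97 and 8.12 CPM to 12.7, 17.7 and 15.8 (0.72 ± 0.16), and CSF2, a myeloid growth factor, from 27.8, 23.5 and 20.6 to 44.6, 51.7 and 50.1 (1.01 ± 0.23). The NF-kappaB subunits RELA (0.068 ± 0.039) and NFKB1 (-0.044 ± 0.051) and the inhibitor NFKBIA (0.066 ± 0.057) did not pass. Interferon-stimulated genes moved both ways, with 12 of 33 lower and 7 higher. ISG15 (-0.72 ± 0.056) and IFITM1 (-0.95 ± 0.093) fell, while DDX60 (0.85 ± 0.086) and the RNA sensor RIG-I, DDX58 (0.64 ± 0.056), rose.

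Growth programmes changed by small amounts. DNA replication genes rose in 10 of 26 cases and fell in 2, led by CDC45 (0.44 ± 0.045) and RRM2 (0.33 ± 0.056). Both falls, MCM2 (-0.10 ± 0.039) and MCM7 (-0.12 ± 0.038), were lost without control replicate 2 (adjusted p = 0.161 and 0.0785) or mtLys replicate 1 (0.0779 and 0.0771), and that of MCM2 without mtLys replicate 2 (0.138) or without the low-count filter (0.147). Mitosis genes had 4 of 26 higher and 2 lower, counts that ranged from 1 to 6 and from 0 to 6 when single libraries were left out. Of 16 p53 targets 4 rose and 6 fell, and CDKN1A was lower (-0.33 ± 0.048); MDA-MB-231 carries mutant p53. Cytosolic ribosomal protein genes were lower in 31 of 74 cases and higher in 1, with a median of -0.09. The 31 became 20 without control replicate 2 or mtLys replicate 2. RPL12 had the largest fall (-0.46 ± 0.041) and RPS3 was the rise (0.24 ± 0.035).

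**Figure D4:**
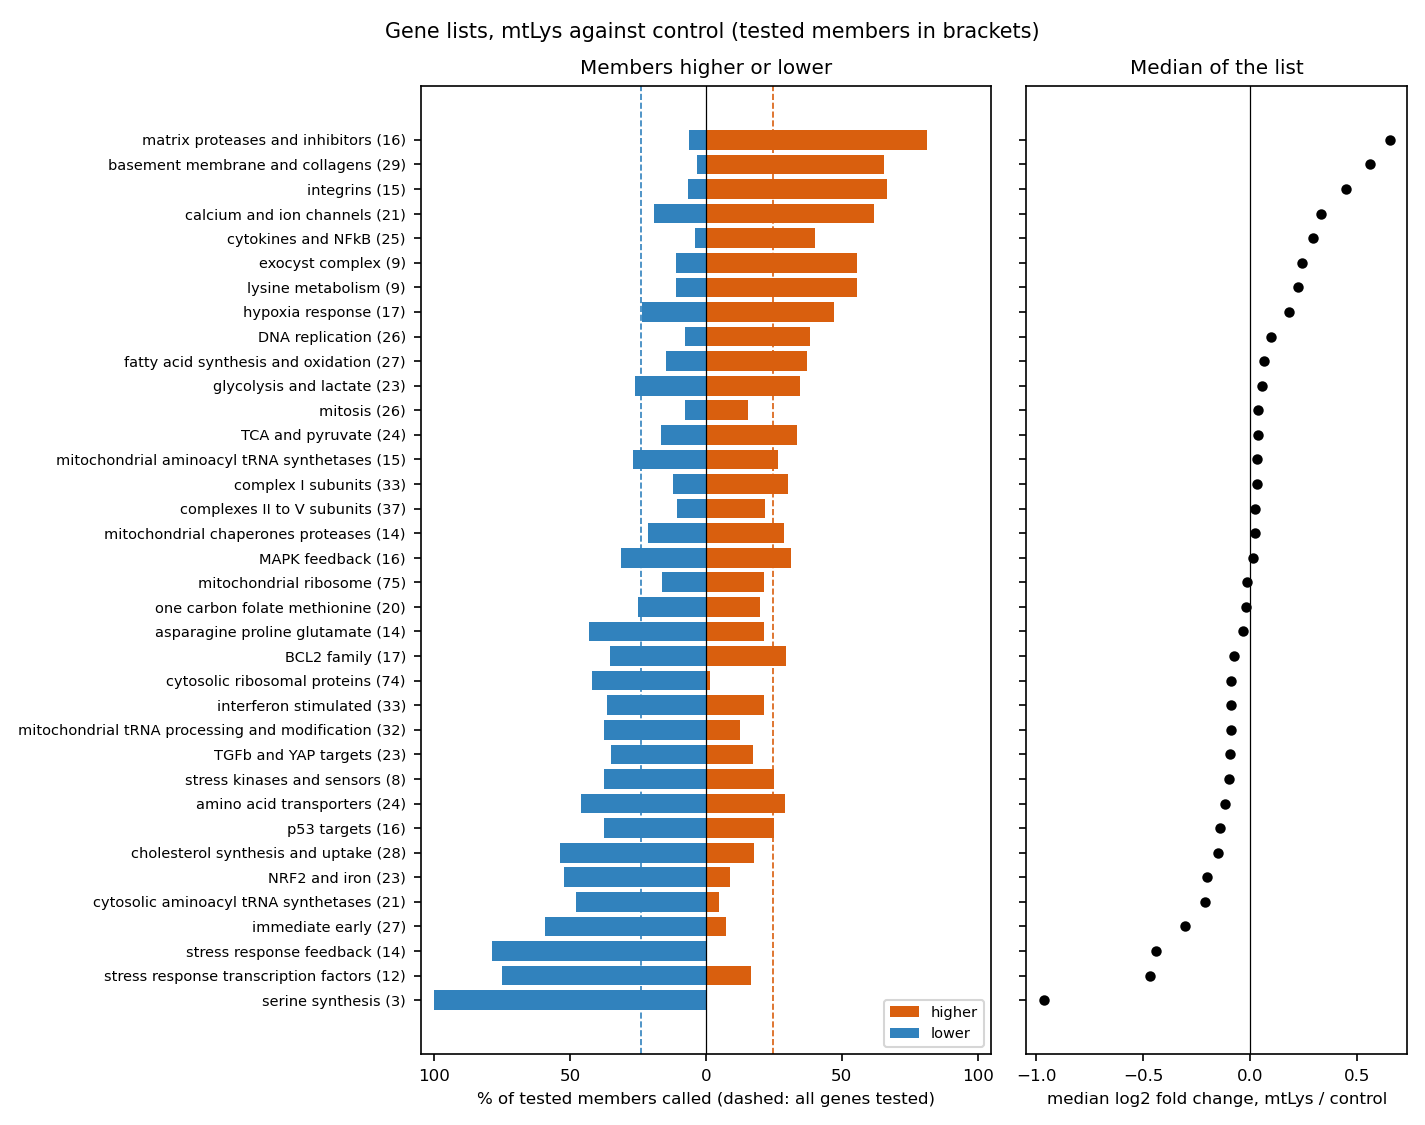
Left, percent of each gene list's tested members called higher (orange) or lower (blue) with mtLys against control, with dashed lines for all tested genes (24.6% and 23.9%); right, the list's median log2 fold change. Matrix proteases (0.65) and collagens (0.56) are at the top, and serine synthesis (-0.96) and the stress factors (-0.47) at the bottom.

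Set directly against mtAsn-1, an LNA to another mitochondrial tRNA, mtLys differed in few genes: 845 (5.26%), with 504 higher (3.14%) and 341 lower (2.12%). At 2-fold or more there were 62 genes (0.386%), 54 higher (0.336%) and 8 lower (0.0498%). These counts moved with single libraries. Higher genes numbered 284 without mtLys replicate 2, 275 without mtLys replicate 3 and 328 without mtAsn-1 replicate 1, and lower genes 120, 142 and, without mtAsn-1 replicate 2, 145. At 2-fold or more, 35 were higher and 5 lower without mtLys replicate 2, and 5 lower without mtAsn-1 replicate 3. BMF and EXOC4, both far from control, did not pass against mtAsn-1: BMF stood at 9.903, 9.203 and 6.75 CPM with mtAsn-1 and 9.25, 10.8 and 10.2 with mtLys (0.25 ± 0.12, adjusted p = 0.241), and EXOC4 at 74.1, 83.6 and 78.8 and 79.9, 71.9 and 81.3 (-0.021 ± 0.052, adjusted p = 0.882). A p that misses the threshold does not show that the LNAs act alike.

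Some genes stood apart with mtLys. Log2 fold changes in the following sentences are of mtLys over the group just named. AGR2, a disulfide isomerase of the secretory pathway, was at 24.2, 22.6 and 24.6 CPM with mtLys against 12.3, 11.6 and 12.4 for mtAsn-1 (0.97 ± 0.071, adjusted p = 1.08e-09), 13.1, 13.8 and 14.1 in the mtAsn-2 libraries (0.80 ± 0.065) and 15.1, 14.3 and 15.7 in control (0.67 ± 0.067). CEMIP, which degrades hyaluronan, was at 40.7, 54.3 and 48.03 CPM against 18.5, 16.6 and 20.1 for mtAsn-1 (1.36 ± 0.089), 20.6, 18.4 and 20.3 in the mtAsn-2 libraries (1.27 ± 0.083) and 28.4, 29.02 and 29.6 in control (0.72 ± 0.083). For both genes each mtLys library lay above all other libraries. CEMIP overlaps exons of MESD, which rose little against control (0.16 ± 0.048). DHRS3, a retinal reductase, was lowest with mtLys: 8.195, 7.03 and 8.27 CPM against 11.3, 13.8 and 11.6 for mtAsn-1 (-0.64 ± 0.092), 14.9 ± 0.561 (mean ± SD, n = 3) in the mtAsn-2 libraries (-0.93 ± 0.085) and 14.2, 13.4 and 12.8 in control (-0.79 ± 0.089). NUPR1 was lower than with mtAsn-1 too (4.88, 7.54 and 4.53 CPM there; -0.77 ± 0.15, adjusted p = 0.00176) and than with mtAsn-2 (-1.57 ± 0.12).

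With mtLys, S100P and the water channel AQP1 lay between their levels in control and with mtAsn-1. S100P was at 2.22, 1.72 and 1.76 CPM with mtAsn-1, so mtLys was higher (1.72 ± 0.15), and AQP1 went from 8.48, 9.68 and 8.77 CPM in control to 6.17, 6.24 and 6.25 with mtLys and 2.37, 2.401 and 2.87 with mtAsn-1 (1.27 ± 0.12). IL7R, the interleukin 7 receptor, was higher with mtLys (13.7, 17.3 and 16.6 CPM) than with mtAsn-1 (7.54, 7.49 and 8.84; 0.98 ± 0.097). UNC13A was higher as well (1.07 ± 0.15). CXCL8 was lower than with mtAsn-1 (-0.76 ± 0.14, adjusted p = 0.00903). CXCL2 was lower too (-0.69 ± 0.15), a call lost without mtAsn-1 replicate 2 (adjusted p = 0.0651), and CXCL1 (-0.66 ± 0.14) was lost without mtAsn-1 replicate 2 (0.0691) or 3 (0.0532) or mtLys replicate 1 (0.0615) or 3 (0.0794). AKR1C1 (-0.59 ± 0.13) was lost without mtAsn-1 replicate 1 (0.0538) or mtLys replicate 3 (0.0529).

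**Figure D5:**
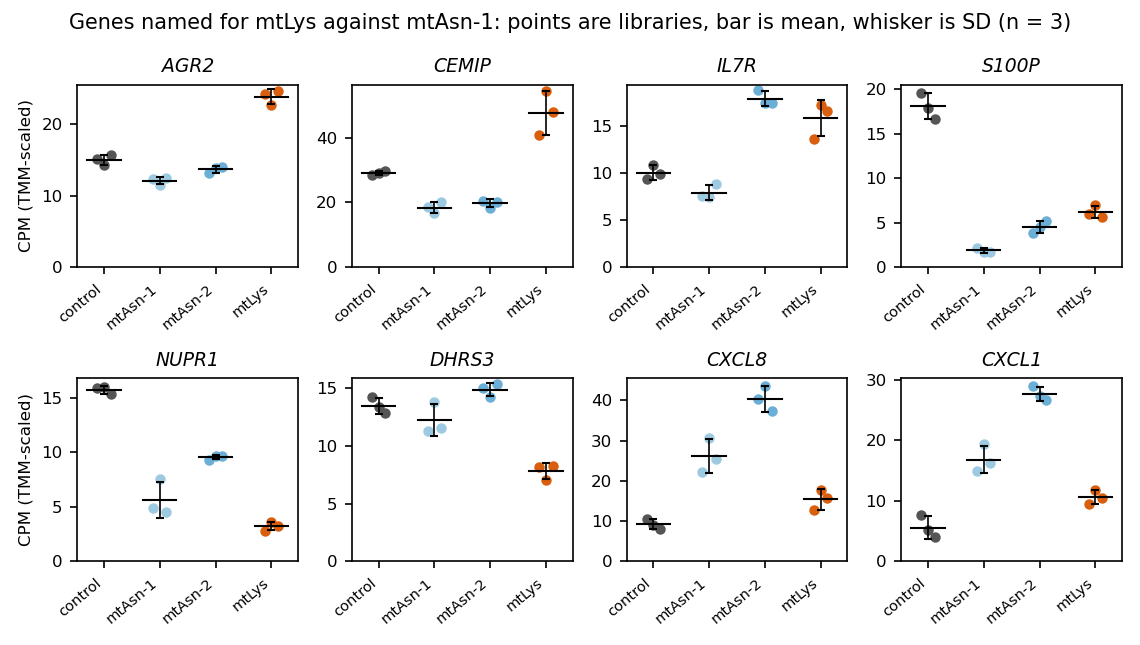
Levels of 8 of the genes named for mtLys against mtAsn-1 in each library, in TMM-scaled CPM on a linear axis from 0, with means and SD (n = 3). AGR2 and CEMIP are highest and NUPR1 and DHRS3 lowest in the 3 mtLys libraries, while CXCL8 and CXCL1 with mtLys lie above control and below both asparagine LNAs.

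By list, 8 of 25 cytokine genes were lower and 0 higher with mtLys than with mtAsn-1, and 11 of 33 interferon-stimulated genes were higher and 0 lower, among them DDX60 (0.55 ± 0.086), IFIT2 (0.50 ± 0.086) and ISG15 (0.36 ± 0.058). All 3 serine synthesis genes were lower (PHGDH -0.36 ± 0.086, PSAT1 -0.37 ± 0.058, PSPH -0.17 ± 0.049). Cytosolic ribosomal protein genes were lower in 33 of 74 cases with a median of -0.13, and mitosis genes in 7 of 26. Nuclear respiratory chain genes had 0 of 70 higher and 2 lower. Matrix, integrin and protease genes, the clearest group of rises against control, had 9 of 60 higher and 3 lower, with a median of 0.043. Against mtAsn-1, 3.14% of all tested genes were higher and 2.12% lower. Of the stress and amino acid union, 18 of 88 were lower (20.5%) and 2 higher.

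Against mtAsn-2, the other asparagine LNA, mtLys differed in 7807 genes (48.6%), with 4125 higher (25.7%) and 3682 lower (22.9%), and 442 at least 2-fold higher (2.75%) and 277 at least 2-fold lower (1.73%). GAS6, a ligand of AXL, stood at 464, 493 and 487 CPM with mtLys, 498, 475 and 457 in control and 134, 134 and 142 with mtAsn-2 (1.82 ± 0.042), so the control and mtLys libraries overlapped above mtAsn-2. PTPRF, a receptor phosphatase, was at 89.3, 86.8 and 90.7 CPM with mtAsn-2, 321, 288 and 280.2 in control and 442, 452 and 417 with mtLys (2.30 ± 0.056). PPIC (1.95 ± 0.081), OFD1 (1.83 ± 0.079) and SHANK2 (1.87 ± 0.088) were also among the largest rises; PPIC, OFD1 and GAS6 overlap exons on the other strand. The named falls were NR4A1 (15.2 ± 0.6704 CPM with mtAsn-2, SD, n = 3; -1.94 ± 0.11), CXCL2 (-1.90 ± 0.13), CSF3 (-1.88 ± 0.13), ATF3 (11.7, 10.9 and 11.96 CPM; -1.63 ± 0.13), NUPR1 (-1.57 ± 0.12) and PTPRH (-1.57 ± 0.13).

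By list, cytokine genes were lower in 21 of 25 cases with mtLys than with mtAsn-2 and higher in 0, with a median of -0.96. Glycolysis genes were higher in 19 of 23 and hypoxia genes in 14 of 17, with medians of 0.30 and 0.40. Matrix, integrin and protease genes were higher in 42 of 60 (70.0%) against control and in 9 of 60 against mtAsn-1. Against mtAsn-2 they were higher in 44 of 60 (73.3%). Ribosomal protein genes were lower in 64 of 74. Mitochondrial ribosomal protein genes were lower in 22 of 75, a share near the background. Against mtAsn-2 that background was 25.7% of all tested genes higher and 22.9% lower. Cholesterol genes, lower against control, were higher in 14 of 28 against mtAsn-2. HMGCS1 stood at 56.6 ± 2.45 CPM (SD, n = 3) with mtAsn-2 and 55.7 ± 2.304 with mtLys and did not pass (-0.026 ± 0.055).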

How the data were processed

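The deposited table holds raw counts of reads per gene for 12 libraries, made by the authors with no normalisation. Libraries were made with the TruSeq RNA Library Kit v2, per the labels' protocols. The submitters' processing notes name FastQC, STAR 2.6.0a, featureCounts and DESeq2 and the build hg38. How strand and multiply mapped reads were treated is not given in the sources used here. Of 52897 lines, 26 fragments of 12 broken genes (among them TTN and DST) were left out, and 52859 genes were used.

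Counts were tested in R 4.3.3 with edgeR 4.0.16 (TMM, filterByExpr with minimum count 10 and minimum total 15, robust quasi-likelihood F test) fitted once to all 12 libraries, with p-values adjusted by Benjamini-Hochberg within a comparison and a threshold of 0.05. The common biological coefficient of variation was 0.0421. SE is the log2 fold change over the root of its F statistic. Levels are TMM-scaled CPM. The test was also run on simulated counts with few changed genes. That setting differs from these data, where many genes were called, so it is not used as support. Alternatives used DESeq2 1.42.0, RLE factors, other filters, a replicate block, only the libraries compared and each library left out; thinning all libraries to the total of the smallest one was chosen after seeing the data. Plots used Python 3.11.15 and matplotlib 3.10.9.

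The named genes were the targets, the 15 largest rises and falls against control and the 6 largest against each mtAsn LNA (protein-coding, adjusted p under 0.05, mean log2 CPM of at least 2, no overlap of libraries), and the members of the stress, BCL2, amino acid and synthetase lists. For other lists they were the 3 rises and 3 falls, where there were so many, of lowest adjusted p, and further members named beside them were chosen after their values were seen. Some genes that these rules name are not reported here. The members, the 36 gene lists, the 5 marker lists and the motifs were chosen with earlier results of these data known.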

Additional observations from a re-analysis of the deposited data

How the results depend on the processing

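Of 365 gene results, 305 were called, and 273 of these kept their call in each of the 19 settings that tested the gene. Genes that a filter removed in a setting did not count as lost there. The other 32 lost their call when some library was left out, 16 uncalled results gained one in some setting, and 0 reversed. Against control, higher genes ranged from 3439 to 4129 and lower genes from 3319 to 4038 over left-out libraries. The stricter low-count filter, which tests fewer genes, left 94 genes at least 2-fold higher and 70 lower against control, 162 and 36 against mtAsn-2, and 5 and 0 against mtAsn-1. DESeq2 gave 30 and 3 against mtAsn-1, and thinned libraries gave 5 lower. Against mtAsn-1, left-out libraries gave 275 to 527 higher and 120 to 395 lower genes, and 35 to 67 and 5 to 9 at 2-fold. MT-TK was 0.33 without the low-count filter and 0.321 in only the libraries compared, both past the threshold, and 0.271 to 0.392 over left-out libraries; the cause was not tested. No scaling moved the median of all genes by over 0.1. Each scaling sets the bulk of genes near 0, so this median cannot check the scaling.

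Replicate numbers did not pair the libraries: deviations of same-numbered mtLys and control libraries correlated at 0.009 to 0.027. With a replicate block, 3811 genes were higher and 3693 lower against control, 420 and 256 against mtAsn-1, and 3976 and 3513 against mtAsn-2, and MT-TK was 0.32. The block ended 5 of the 305 gene calls, those of MCM2 (adjusted p = 0.0535), AADAT (0.0625), SLC1A3 (0.0669), TOP2A (0.0635) and BCL2 (0.0543), and EIF2AK3 passed with it (0.0484). Depth limits genes of few reads, and counting intervals would cover counting error only.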
